A study of Mus musculus with 12 samples.

Results

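The genes described here encode the proteins of the mitochondrial ribosome. They were taken as the rows of the deposited gene count table whose Ensembl ID maps to a symbol of the form Mrpl or Mrps, a number and at most one further letter, which leaves out pseudogenes. This gave 78 genes of 78317 in the table: 51 encode proteins of the large subunit, 26 encode proteins of the small subunit, and Mrps36 carries the name although its product is known as a component of the 2-oxoglutarate dehydrogenase complex. Mrps30 and Mrps18a are counted with the large subunit, where their proteins sit. The tissue was heart ventricle of C57BL/6J mice, measured by bulk RNA sequencing. In the injured-sire group (6 libraries) the father had received a cardiac cryoinjury, a local freezing of the heart, on postnatal day 1. In the uninjured-sire group (6 libraries) the father had not been injured. The labels give the age at collection as 3 wpp and also call the animals adult. Both groups held males and females, but which library came from which sex, sire or litter was not given. A covariate from the levels of Xist and Y-linked genes entered an alternative fit, given in the closing section. Replicate 16 of the injured-sire group is named in the labels as an outlier and was left out, so the comparison set 5 injured-sire libraries against 6 uninjured-sire libraries. Where libraries came from siblings, the p-values would be too small.

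Mitochondrial ribosomes translate the few proteins encoded by mitochondrial DNA, all of them subunits of the respiratory chain and the ATP synthase, on which the beating heart depends. Each ribosome joins RNA and protein made in different compartments: the ribosomal RNAs mt-Rnr1 (small subunit) and mt-Rnr2 (large subunit) are transcribed from mitochondrial DNA, while every protein is encoded in the nucleus, translated in the cytosol and imported. Some of the proteins descend from the bacterial ribosome and others are particular to mitochondria. The nuclear respiratory factors NRF1 and GABP (an ETS-family factor also called NRF2) are known regulators of nuclear genes for mitochondrial proteins.

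Promoter windows from RefSeq (GRCm38.p6, 250 bases before to 50 after a gene's start) were found for 69 of the 78 genes. The letters CGCATGCG, the core of the NRF1 motif and its own reverse complement, occurred in the window of 7 of the 69 (10.1%), against 2.1% of all 27025 genes with a window. The letters CCGGAAG on either strand, an ETS core, occurred in 26 of the 69 (37.7%), against 9.9% of all. Either motif was present in 30 of the 69 and both in 3. The GC box GGGCGG, on either strand, occurred in 49.3% of the members and 38.2% of all, and the letters TATAAA in 7.2% of the members and 15.7% of all. A match is a description of the letters and not a site of binding. The 250 bases before the start are shown for the 5 members that had the smallest p among those lower in the injured-sire group, with matches to either of the first 2 motifs in capitals.
Mrpl42: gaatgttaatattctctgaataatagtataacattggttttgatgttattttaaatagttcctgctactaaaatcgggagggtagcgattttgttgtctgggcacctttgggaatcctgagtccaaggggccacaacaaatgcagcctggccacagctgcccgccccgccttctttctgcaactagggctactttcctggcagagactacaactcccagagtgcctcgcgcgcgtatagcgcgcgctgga
Mrps18b: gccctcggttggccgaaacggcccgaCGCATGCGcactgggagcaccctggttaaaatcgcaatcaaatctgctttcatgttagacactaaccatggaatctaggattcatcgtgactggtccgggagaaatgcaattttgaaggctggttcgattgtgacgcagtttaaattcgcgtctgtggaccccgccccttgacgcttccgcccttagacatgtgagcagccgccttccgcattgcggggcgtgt
Mrpl39: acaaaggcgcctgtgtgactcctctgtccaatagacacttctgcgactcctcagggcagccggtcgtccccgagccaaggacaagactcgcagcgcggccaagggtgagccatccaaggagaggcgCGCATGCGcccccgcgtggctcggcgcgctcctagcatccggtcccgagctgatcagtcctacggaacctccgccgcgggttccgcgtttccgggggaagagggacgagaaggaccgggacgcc
Mrpl32: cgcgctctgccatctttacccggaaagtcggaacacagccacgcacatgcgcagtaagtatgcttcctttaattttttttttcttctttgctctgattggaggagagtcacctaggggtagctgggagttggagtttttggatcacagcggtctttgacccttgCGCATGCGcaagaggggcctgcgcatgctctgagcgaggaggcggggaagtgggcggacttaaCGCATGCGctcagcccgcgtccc
Mrpl34: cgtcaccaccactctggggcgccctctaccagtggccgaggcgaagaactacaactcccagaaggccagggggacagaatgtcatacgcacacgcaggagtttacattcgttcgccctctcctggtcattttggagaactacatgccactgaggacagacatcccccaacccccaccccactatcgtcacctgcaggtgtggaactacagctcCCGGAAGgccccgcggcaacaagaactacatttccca
On GRCm38.p6 these windows lie at chr10:95501950-95502199 (minus strand), chr17:35916441-35916690 (minus strand), chr16:84735245-84735494 (minus strand), chr13:14613038-14613287 (minus strand) and chr8:71464676-71464925 (plus strand). The NRF1 letters begin 224 bases before the start in Mrps18b, 124 in Mrpl39, and 86 and 23 in Mrpl32. The ETS letters begin 37 bases before the start in Mrpl34, and these 250 bases of Mrpl42 hold neither motif.

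Libraries held 30537315 to 42090257 counts. Every member passed the filter on low counts, with 200 to 8908 counts in any library. Together the 78 genes took 0.326% to 0.388% of the counts of a library. Levels are given as CPM, counts scaled to the library size after TMM normalization, a correction for differences in RNA composition. Cardiomyocyte markers were at high levels in all libraries (10 genes, 78150 to 91040 summed CPM in injured-sire and 75760 to 85460 in uninjured-sire libraries).

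No mitochondrial ribosomal protein gene was called different between hearts of offspring of injured and uninjured males. Of the 78 members, 0 were called higher and 0 lower by edgeR's quasi-likelihood test with Benjamini-Hochberg adjustment over 17130 genes at a threshold of 0.05, while 0.0525% of all genes tested were called in each direction. The smallest adjusted p was 0.41, for Mrpl42. At an unadjusted p below 0.05 there were 3 members, all lower, which is 3.85% of the members against 8.96% of all genes in either direction (4.28% higher and 4.68% lower). The DESeq2 Wald test likewise called 0 members, while it called 71 of all genes higher and 59 lower. At an unadjusted p below 0.05 it had 3 members (3.85%), against 9.56% of all genes. Log2 fold changes ran from -0.25 to 0.09.

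The fitted differences were small and mostly negative. Of the 78, 19 members had a positive log2 fold change, against 50.1% of all genes tested, and 59 members (75.6%) a negative one, against 49.9% of all genes tested. The median was -0.05 over the members and 0.00 over all genes. This lean rested on leaving out replicate 16: with all 12 libraries, 37 members were negative and the median was 0.01. The members share libraries and moved together between them, so their signs are not independent. On the log2 scale the 95% intervals of the members had a median half-width of 0.155, against 0.262 over all genes. For 71 members the whole interval lay within 0.3 of 0. In bulk tissue, fewer cells of a type and less RNA per cell cannot be told apart.

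**Figure D1:**
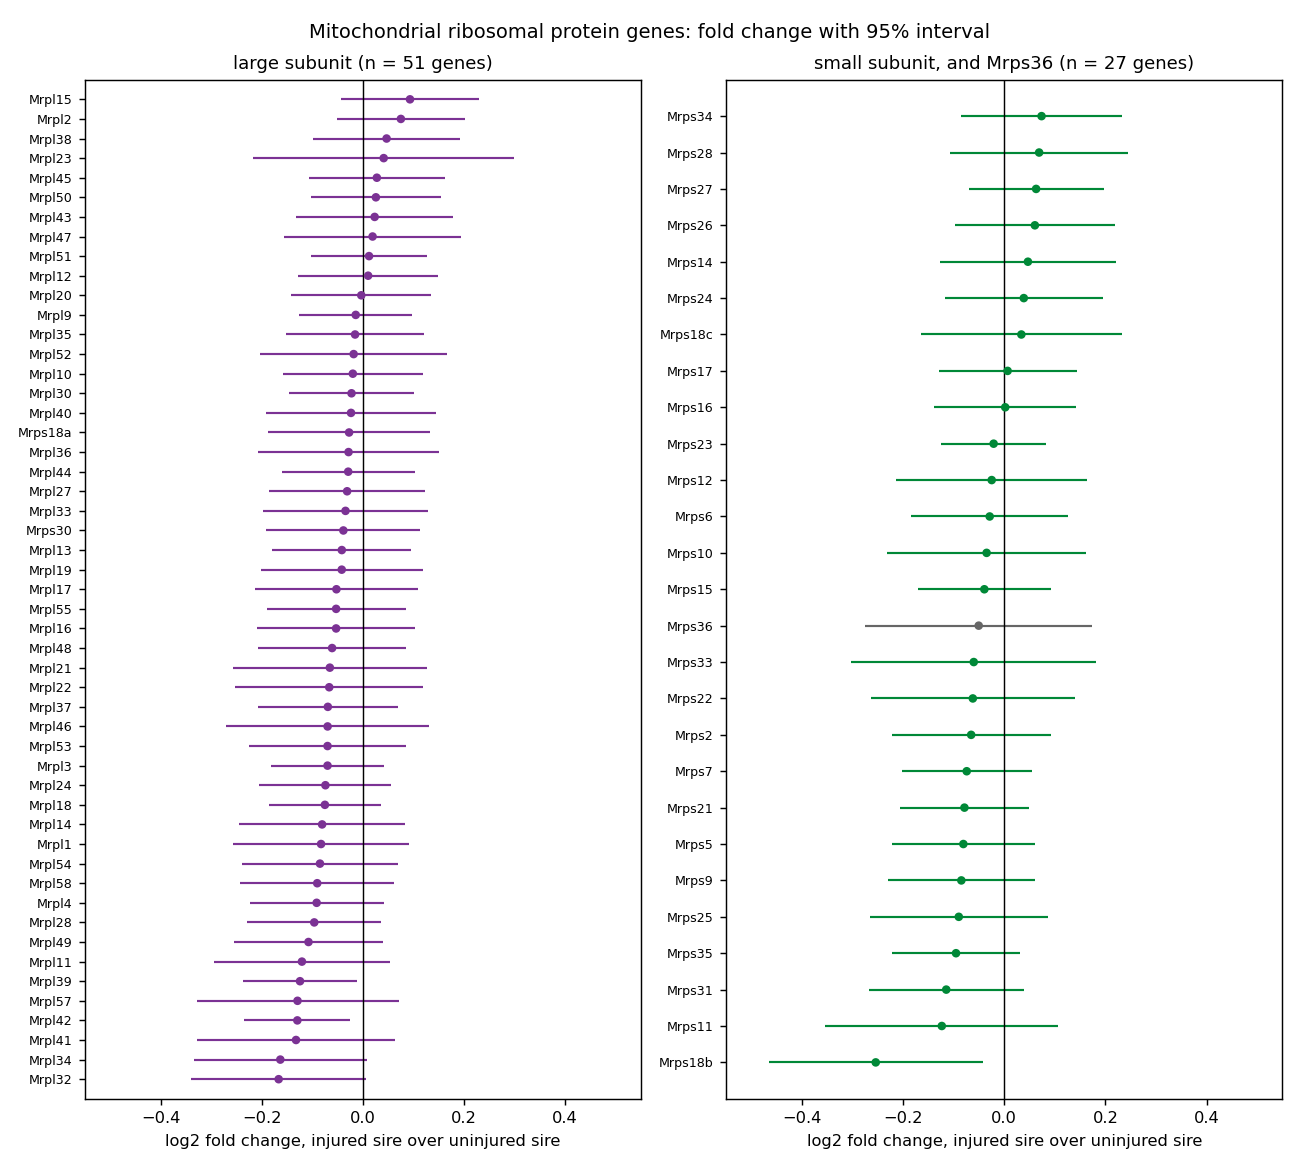
Log2 fold change (x axis, injured sire over uninjured sire) with its 95% confidence interval for each member gene, the 51 large subunit genes on the left and the 26 small subunit genes with Mrps36 (grey) on the right. Points lie between -0.25 and 0.09 and most intervals span 0.

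In the large subunit, 10 of 51 members were positive and 41 negative, with a median log2 fold change of -0.05. The median was -0.05 over the 30 with a bacterial homologue and -0.06 over the 21 particular to mitochondria. Mrpl42 (chromosome 10, 95316667 to 95337802, GRCm39), which encodes the mitochondria-specific protein mL42, was the member whose groups did not overlap, as in 0.625% of all genes with the injured-sire group lower. It was at 194, 195, 191, 197 and 186 CPM in injured-sire libraries 12, 13, 14, 15 and 17, against a lowest of 197.4, a median of 210.0 and a highest of 231 CPM in the 6 uninjured-sire libraries. The margin was narrow: the highest injured-sire value, 197.2 CPM in replicate 15, lay just below the lowest uninjured-sire value, in replicate 22. Its log2 fold change was -0.13 ± 0.0506 (SE, edgeR adjusted p = 0.41). Replicate 16 had 241 CPM, above every other library.

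Mrpl39 (chromosome 16, 84514464 to 84532630) encodes mL39, a protein related to threonyl-tRNA synthetase. It was at 57.1, 63.7, 55.3, 57.4 and 57.1 CPM in injured-sire libraries 12, 13, 14, 15 and 17, against 61.5 to 65.9 CPM with a median of 63.4 in the uninjured-sire libraries. Replicate 13 alone reached into the uninjured-sire range, and the log2 fold change was -0.12 ± 0.0544 (SE, edgeR adjusted p = 0.494). Mrpl32 encodes bL32m, which is cut by the m-AAA protease before it joins the ribosome. It averaged 25.8 ± 2.50 CPM in injured-sire (SD, n = 5) and 29.0 ± 2.98 CPM in uninjured-sire libraries (SD, n = 6), and the groups overlapped. Mrpl34 encodes the short bacterial-type protein bL34m and averaged 38.0 ± 0.833 CPM in injured-sire (SD, n = 5) and 42.6 ± 6.11 CPM in uninjured-sire libraries (SD, n = 6). Its uninjured-sire libraries were spread from 36.1 to 50.2 CPM, while those of the injured-sire group lay within 37.1 to 39.2 CPM.

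Among the large subunit members with a positive fold change, the smallest p belonged to Mrpl15 and Mrpl2. Mrpl15 encodes uL15m and was at 59.2 ± 4.43 CPM in injured-sire (SD, n = 5) and 55.5 ± 4.48 CPM in uninjured-sire libraries (SD, n = 6). Its highest injured-sire library was replicate 13 at 66.8 CPM, with the rest of that group at 55.6 to 58.7 CPM. Mrpl2, whose product uL2m lies close to the site of peptide bond formation, was at 66.0 ± 5.08 CPM in injured-sire (SD, n = 5) and 62.6 ± 3.22 CPM in uninjured-sire libraries (SD, n = 6). The log2 fold changes were 0.09 ± 0.0659 for Mrpl15 and 0.07 ± 0.0609 for Mrpl2 (SE, edgeR adjusted p of 0.74 and 0.788). Mrpl12, whose product forms the flexible stalk and has also been described to bind the mitochondrial RNA polymerase, was at 145 ± 9.48 CPM in injured-sire (SD, n = 5) and 144 ± 14.6 CPM in uninjured-sire libraries (SD, n = 6). Its log2 fold change was 0.01, with a 95% interval from -0.13 to 0.15.

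Mrpl3 and Mrpl44, picked here because variants of the human genes are known causes of cardiomyopathy, were not called either. Mrpl3 was at 71.3 ± 2.65 CPM in injured-sire (SD, n = 5) and 74.8 ± 3.42 CPM in uninjured-sire libraries (SD, n = 6), with a log2 fold change of -0.07. Mrpl44 was at 45.8 ± 3.31 CPM in injured-sire (SD, n = 5) and 46.7 ± 2.41 CPM in uninjured-sire libraries (SD, n = 6), with a log2 fold change of -0.03. Both were chosen after their values had been seen.

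In the small subunit, 9 of 26 members were positive and 17 negative, with a median log2 fold change of -0.04. The most negative of all members was Mrps18b (chromosome 17, 36221271 to 36227281), which encodes mS40, related in sequence to the products of Mrps18a and Mrps18c. It was at 12.6, 10.4, 11.1, 11.2 and 12.2 CPM in injured-sire libraries 12, 13, 14, 15 and 17, against a lowest of 11.5, a median of 13.7 and a highest of 15.4 CPM in the uninjured-sire libraries. Injured-sire replicates 12 and 17 lay within the uninjured-sire range and the other 3 below it. The log2 fold change was -0.25 ± 0.102 (SE, edgeR adjusted p = 0.432). Its relatives had log2 fold changes of -0.03 (Mrps18a) and 0.03 (Mrps18c), and neither was called.

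The small subunit members with the smallest p among those positive were Mrps27, which encodes a pentatricopeptide repeat protein, Mrps34, whose product is needed for a stable small subunit, and Mrps28, which encodes the relative of bacterial S1. Mrps27 was at 40.4 ± 1.46 CPM in injured-sire (SD, n = 5) and 38.7 ± 2.7 CPM in uninjured-sire libraries (SD, n = 6). Mrps34 was at 49.9 ± 4.88 CPM in injured-sire (SD, n = 5) and 47.4 ± 4.91 CPM in uninjured-sire libraries (SD, n = 6), and 37.0% of its counted length is shared with another gene on the same strand, where reads would not be counted. Mrps28 was at 33.4 ± 4.60 CPM in injured-sire (SD, n = 5) and 31.8 ± 2.33 CPM in uninjured-sire libraries (SD, n = 6). Their log2 fold changes were 0.06, 0.07 and 0.07, and the groups overlapped for all 3. Mrps12, which encodes uS12m of the decoding centre, was at 24.8 ± 3.50 CPM in injured-sire (SD, n = 5) and 25.2 ± 2.43 CPM in uninjured-sire libraries (SD, n = 6). For Mrps36, outside the ribosome, the fitted log2 difference was -0.05 ± 0.108 (SE, edgeR adjusted p = 0.94).

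The proteins of a ribosome are present in equal numbers, apart from the multi-copy stalk protein bL12m, but their mRNAs were at unequal levels. Per kb of counted exon length and averaged over the 11 libraries, the large subunit members ran from 1.45 CPM per kb for Mrpl23 to 94.2 for Mrpl12, with a median of 18.2. The small subunit members ran from 2.07 CPM per kb for Mrps10 to 74.3 for Mrps23, with a median of 11.6. After Mrpl12, the highest in the large subunit were Mrpl34 (66.7 CPM per kb) and Mrpl18 (63.3), and after Mrpl23 the lowest were Mrpl17 (4.19) and Mrpl19 (4.97). After Mrps23, the highest in the small subunit were Mrps21 (59.4 CPM per kb) and Mrps28 (41.6), and after Mrps10 the lowest were Mrps25 (4.47) and Mrps22 (4.54).

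This order depended on the length. The counted length is the union of all exons annotated for a gene, with a median of 2394 bases, against 1224.5 bases for the coding transcripts of GENCODE M21. Per kb of these transcripts, an alternative added after the data had been seen, Mrpl42 was the highest of the large subunit at 306 CPM per kb, against 54.95 per kb of counted length, and Mrpl23 stood at 10.2. Mrps10 stood at 15.7, and the lowest members were Mrpl19 (5.42) and Mrps25 (4.84). By either length Mrpl12 was among the 3 highest large subunit members, Mrps23 and Mrps21 were among the 3 highest of the small subunit, and the highest and lowest members of each subunit were at least 20.3-fold apart. None of the groups' comparisons uses these lengths.

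**Figure D2:**
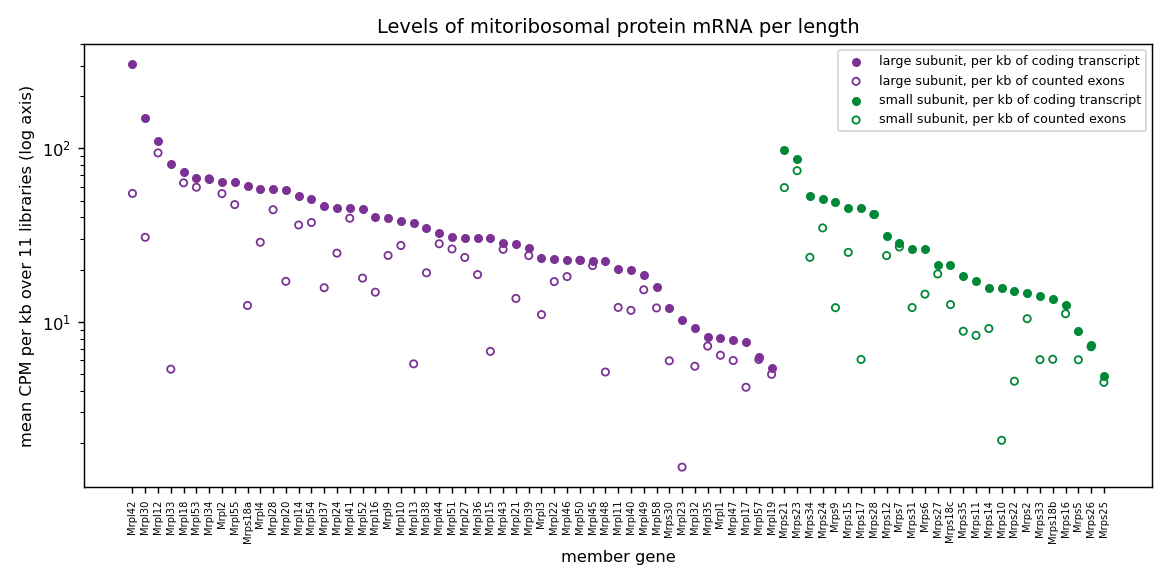
Mean CPM per kb (y axis, log scale, 11 libraries) of each large and small subunit member, ordered by level per kb of coding transcript (filled points), with the level per kb of counted exons (open points). The level of Mrpl42 is 306 by transcript length and 54.95 by counted length.

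The members varied together from library to library. After the group means were removed, the mean correlation between pairs of members over the 11 libraries was 0.297, against 0.000 over all pairs of genes tested, 0.609 for 20 nuclear respiratory chain genes and 0.016 for 30 mitoribosome assembly genes. All pairs share the same libraries and scaling, so these are descriptions. The within-group SD of a member had a median of 0.119 on the log2 scale, against 0.196 over all genes. Summed over the 78 genes, the level was 3286, 3545, 3313, 3539 and 3480 CPM in injured-sire libraries 12, 13, 14, 15 and 17, against a lowest of 3280, a median of 3509 and a highest of 3859 CPM in the uninjured-sire libraries. The injured-sire values all lay within the uninjured-sire range, and uninjured-sire replicate 18, the highest of the 11, was the highest library for 37 of the 78 members.

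Replicate 16 of the injured-sire group stood above all of them, with 4224 summed CPM, and for 60 of 78 members its level exceeded that of every other library. Its mean log2 level over the members was 0.267 above the mean of the 11 libraries, and the same measure was 0.284 for the nuclear respiratory chain genes, 0.208 for 14 genes of mitochondrial mass and 0.176 for the cardiomyocyte markers. Over all genes tested it was -0.033. Its library size was scaled by TMM over all 12 libraries and matched to the other 11. Its CPM over all genes tested summed to 1088000, against 973100 to 1035000 in the others. As a share of all counts, its members took 0.388%, against 0.377% in uninjured-sire replicate 18, the next highest. With this library included the sign of the members' median turned positive, as given above.

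The ratio of the subunits overlapped between the groups. The summed CPM of the large subunit over that of the small subunit was 2.52 ± 0.0557 in injured-sire (SD, n = 5) and 2.54 ± 0.0192 in uninjured-sire libraries (SD, n = 6). In single libraries it ran from 2.46 to 2.58 in the injured-sire group and from 2.52 to 2.57 in the uninjured-sire group, and replicate 16, high in both sums, had 2.54.

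**Figure D3:**
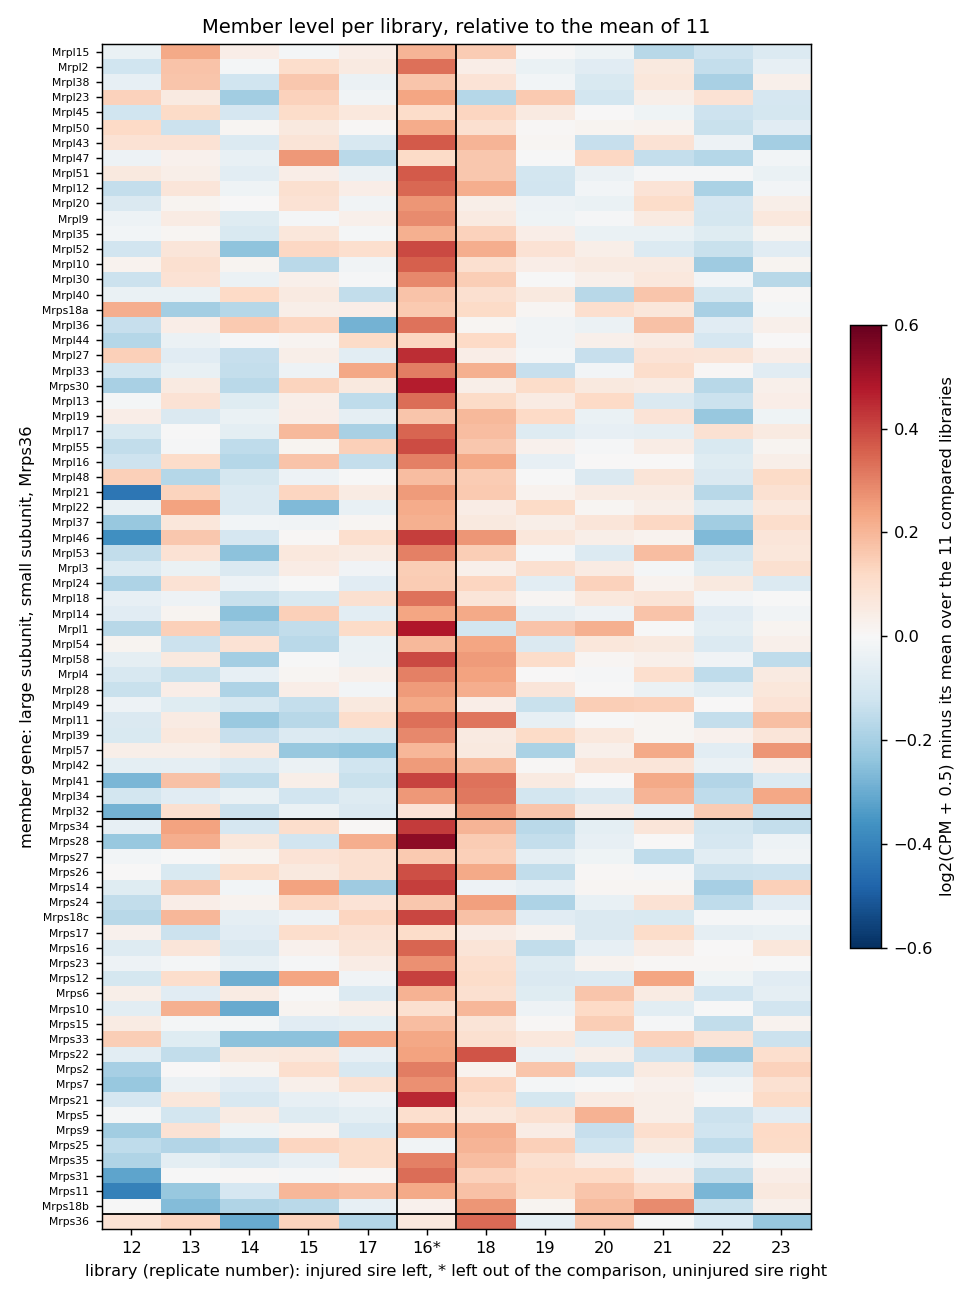
Level of each member (rows, by subunit and then by fold change) in each library (columns, injured sire left and uninjured sire right), as log2(CPM + 0.5) minus its mean over the 11 compared libraries. Replicate 16, marked with an asterisk, is red in most rows, and uninjured-sire replicate 18 is the highest of the 11 for 37 of the 78 members.

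Of the ribosomal RNAs around which these proteins assemble, mt-Rnr1 was lower in the injured-sire group, and mt-Rnr2 did not pass the test. mt-Rnr1 (mitochondrial DNA, 70 to 1024) was at 2890, 2859, 3001, 3432 and 3175 CPM in injured-sire libraries 12, 13, 14, 15 and 17, against a lowest of 3560, a median of 4148 and a highest of 4749 CPM in the uninjured-sire libraries. All 5 injured-sire libraries lay below all 6 uninjured-sire libraries. Its log2 fold change was -0.43 ± 0.0700 (SE, edgeR adjusted p = 0.0107). The call was lost without injured-sire replicate 13 (edgeR adjusted p = 0.0621) or 14 (0.0505), with 1 surrogate variable in the model (0.0769), and with replicate 16 included (0.438), which had 4590 CPM.

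mt-Rnr2 (mitochondrial DNA, 1094 to 2675) was at 8910, 7742, 7634, 8647 and 7814 CPM in the same injured-sire libraries, against a lowest of 8418, a median of 10000 and a highest of 10750 CPM in the uninjured-sire libraries. Injured-sire replicates 12 and 15 lay within the uninjured-sire range. Its log2 fold change was -0.26 ± 0.0612 (SE, edgeR adjusted p = 0.116), which did not pass. It passed in the DESeq2 Wald test (adjusted p = 0.0133). In edgeR it passed without uninjured-sire replicate 21 (adjusted p = 0.0494) and without a filter on low counts. The Wald test called 71 of all genes higher and 59 lower, and the fit without a filter 97 and 139, against 9 and 9 in the main fit.

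Together the rRNAs took 1.13 ± 0.0682% of counts in injured-sire (SD, n = 5) and 1.38 ± 0.115% in uninjured-sire libraries (SD, n = 6). No injured-sire library exceeded 1.226% and no uninjured-sire library was below 1.23% (exact two-sided permutation p = 0.00433, adjusted p = 0.00433 over 2 rRNA measures, the smallest the 462 splits allow). The rRNAs also differed in proportion. The count of mt-Rnr1 over that of mt-Rnr2 was 0.378 ± 0.0329 in injured-sire (SD, n = 5) and 0.424 ± 0.0152 in uninjured-sire libraries (SD, n = 6), again without overlap (exact two-sided permutation p = 0.00433, adjusted p = 0.00433). The margin was narrow: the highest injured-sire ratio was 0.406 in replicate 17, and the lowest uninjured-sire ratio was 0.408 in replicate 22. Replicate 16 had a ratio of 0.358, within the injured-sire range of 0.324 to 0.406, while its rRNA share, 1.598%, was the highest of the 12. With it included the share no longer differed past the threshold (exact permutation p = 0.0996).

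Some other library measures leaned with the groups, but all of them overlapped between the groups. Injured-sire libraries had 22970 ± 803 genes with at least 1 count (SD, n = 5) against 25090 ± 1070 in uninjured-sire libraries (SD, n = 6). The highest injured-sire library, replicate 14, had 24146 and the lowest uninjured-sire library, replicate 20, had 23711. The summed level of 10 airway and lung markers was 39.2 to 638 CPM in injured-sire and 0.914 to 390 CPM in uninjured-sire libraries, with a positive log2 fold change for 8 of 8 tested and 0 called. Scgb1a1 and Cyp2f2 were at 0 in no library and reached 10427 and 5019 counts. The lung markers Sftpb, Sftpa1, Sftpc and Sftpd were at 0 in 8, 6, 6 and 5 of 12 libraries. The 10 fat markers summed to 1185 to 1711 CPM in injured-sire and 846 to 1582 CPM in uninjured-sire libraries, with a positive log2 fold change for 9 of 9 tested and 0 called. How rRNA was removed from the libraries or mRNA selected is not given in the sources used here, and reads shared with nuclear copies of mitochondrial DNA were not counted. Of 10 macrophage markers 8 had a negative log2 fold change, 4 of them at an unadjusted p below 0.05 in edgeR, and their summed level was 226 to 289 CPM in injured-sire and 267 to 325 CPM in uninjured-sire libraries. Of 7 erythroid markers 6 were negative, 2 of them at an unadjusted p below 0.05, with 2240 to 2971 summed CPM in injured-sire and 2529 to 3556 in uninjured-sire libraries. Of 8 fibroblast markers 5 were positive and 3 negative, with 3 positive and 1 negative at an unadjusted p below 0.05, and 3012 to 3366 summed CPM in injured-sire and 2656 to 3386 in uninjured-sire libraries. Of 6 skeletal muscle markers tested 4 were positive and 2 negative, with 1 positive at an unadjusted p below 0.05. Of 8 endothelial markers 5 were positive and 3 negative, with 1 positive at an unadjusted p below 0.05. None of these markers was called, and the summed levels of the groups overlapped for every list given here. The part of any of these measures in the rRNA difference was not tested. With airway and fat scores as covariates 72 of the 78 members were negative and 7, all negative, had an unadjusted p below 0.05 in edgeR, or 8.97% of the members against 9.58% of all genes in that fit, again with 0 called.

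**Figure D4:**
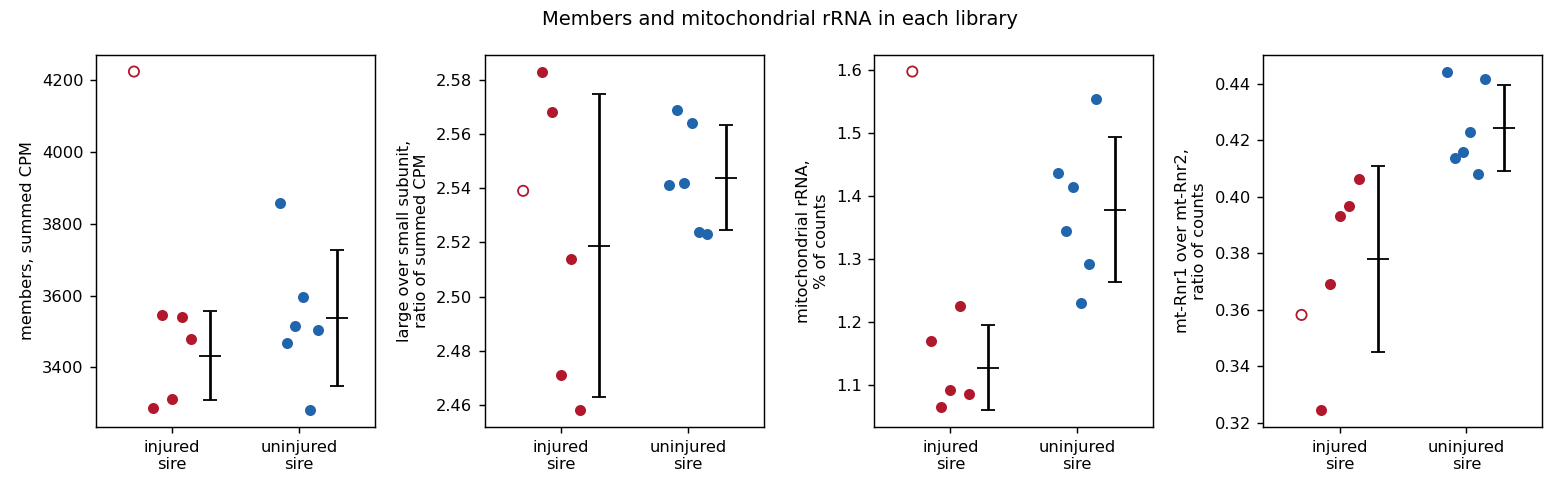
Summed CPM of the 78 members, ratio of the summed CPM of the subunits, share of counts in mitochondrial rRNA and ratio of mt-Rnr1 to mt-Rnr2 counts (y axes) in each library, injured sire left in red and uninjured sire right in blue. Bars are mean ± SD without replicate 16 (open circle), and the groups are apart in the rRNA share and in the rRNA ratio but overlap in both measures of the members.

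The rRNAs were also set against the protein mRNAs of the same subunit. Per count of small subunit mRNA there were 3.17, 2.89, 3.16, 3.425 and 3.17 counts of mt-Rnr1 in injured-sire libraries 12, 13, 14, 15 and 17, against a lowest of 3.545, a median of 4.195 and a highest of 4.79 in the uninjured-sire libraries. The groups did not overlap in this ratio. Per count of large subunit mRNA there were 3.34 ± 0.285 counts of mt-Rnr2 in injured-sire (SD, n = 5) and 3.86 ± 0.352 in uninjured-sire libraries (SD, n = 6), and the groups overlapped. Replicate 16, high in both terms, had 3.86 for the small and 4.25 for the large subunit.

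From library to library, the relation of rRNA to ribosomal protein mRNA rested on few libraries. Over the 11 libraries the share of counts in mitochondrial rRNA and the share in the 78 members had a Pearson r of 0.22 and a Spearman rho of 0.20, and r was -0.12 without uninjured-sire replicates 18 and 23, the libraries farthest from the median rRNA share. Within the 6 uninjured-sire libraries r was 0.09 and rho 0.31, and r was 0.84 without replicates 21 and 23. With replicate 16 the 12 libraries gave an r of 0.47. As shares of counts outside the mitochondrial genome r was 0.38 over the 11 libraries, 0.01 without replicates 18 and 23, and 0.61 with replicate 16. These are descriptions over few libraries, whose shares are parts of the same total and whose groups differ in the rRNA. The sums of the large and the small subunit members, by contrast, had an r of 0.95 and a rho of 0.79 over the 11 libraries, and an r of 0.87 without the 2 libraries farthest from the median.

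**Figure D5:**
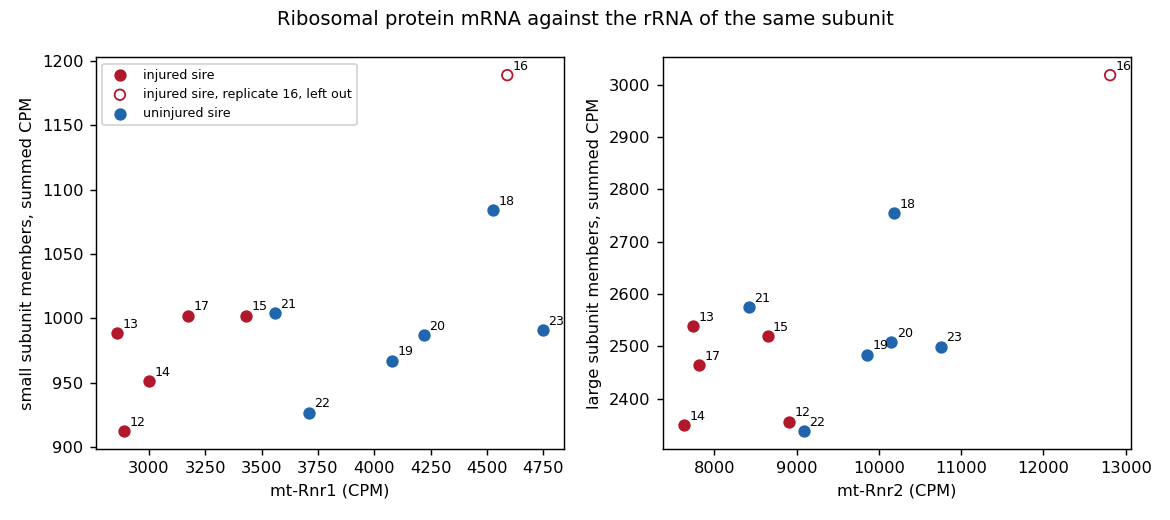
Summed CPM of the small subunit members against mt-Rnr1 (left) and of the large subunit members against mt-Rnr2 (right), with a point per library labelled by its replicate number. Injured-sire libraries (red) lie to the left of uninjured-sire libraries (blue) at similar heights in the left panel, and replicate 16 (open) is the highest in both.

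Mitoribosomal proteins whose genes carry other names were not called. Gadd45gip1 of the large subunit had a log2 fold change of -0.04, and the 4 small subunit genes Dap3 (-0.05), Chchd1 (-0.09), Aurkaip1 (-0.01) and Ptcd3 (0.05) lay in the same range as the members.

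Genes that build and run the mitochondrial ribosome were not called by edgeR's quasi-likelihood test either. Of 30 assembly genes, 0 were called, with 12 positive, 18 negative and 2 at an unadjusted p below 0.05 in edgeR, or 6.67% against the 8.96% of all genes. These were Mtg2, a GTPase of large subunit assembly, at 17.9 ± 2.61 CPM in injured-sire (SD, n = 5) and 22.5 ± 1.105 CPM in uninjured-sire libraries (SD, n = 6), and Rpusd4, a pseudouridine synthase acting on the large rRNA, at 8.50 ± 0.167 CPM in injured-sire (SD, n = 5) and 11.2 ± 1.35 CPM in uninjured-sire libraries (SD, n = 6). The log2 fold change was -0.33 ± 0.0889 for Mtg2 and -0.40 ± 0.109 for Rpusd4 (SE, edgeR adjusted p = 0.189 for both). Rpusd4 passed in the DESeq2 Wald test (adjusted p = 0.0492), and Mtg2 passed in edgeR without a filter on low counts (adjusted p = 0.0314). Both settings called more of all genes than the main fit, which called 9 higher and 9 lower. The Wald test called 71 higher and 59 lower, and the fit without a filter 97 and 139. All 5 injured-sire libraries had less Rpusd4 than any uninjured-sire library. Tfb1m, which methylates the small rRNA and was picked after its value had been seen, was at 5.06 ± 0.316 CPM in injured-sire (SD, n = 5) and 6.03 ± 0.579 CPM in uninjured-sire libraries (SD, n = 6), with a log2 fold change of -0.25 (edgeR adjusted p = 0.595).

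Of 15 translation factors 6 were positive and 9 negative, none at an unadjusted p below 0.05 in edgeR and 0 called. The smallest p belonged to Mrrf, the ribosome recycling factor (-0.10 on the log2 scale), and Mtrf1l, a release factor (-0.19). Of 22 mitochondrial aminoacyl-tRNA synthetase and amidotransferase genes 8 were positive and 14 negative, with 0 called. Yars2, for tyrosine, had -0.20 ± 0.0846 (SE, edgeR adjusted p = 0.475), and Lars2, for leucine, varied widely, at 87.8 to 240 CPM in injured-sire and 132 to 496 CPM in uninjured-sire libraries, with a log2 difference of -0.87 ± 0.417 (SE, edgeR adjusted p = 0.588). Of 19 genes of mitochondrial transcription and RNA processing 11 were positive and 8 negative, with 0 called. Supv3l1, a helicase of mitochondrial RNA decay, had 0.18 ± 0.0757 (SE, edgeR adjusted p = 0.45) and the transcription factor Tfb2m -0.16 ± 0.0964 (SE, edgeR adjusted p = 0.653).

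Among 10 regulators of mitochondrial biogenesis 5 were positive and 5 negative, with 0 called. Ppargc1b, a coactivator, was at 34.4 ± 4.56 CPM in injured-sire (SD, n = 5) and 28.0 ± 2.03 CPM in uninjured-sire libraries (SD, n = 6). The fitted difference for Ppargc1b was 0.30 ± 0.0834 on the log2 scale (SE, edgeR adjusted p = 0.2). Its relative Ppargc1a had -0.25 ± 0.163 (SE, edgeR adjusted p = 0.725). Nrf1, whose product binds the motif found in Mrps18b, Mrpl39 and Mrpl32, was at 14.6 ± 2.48 CPM in injured-sire (SD, n = 5) and 14.7 ± 1.15 CPM in uninjured-sire libraries (SD, n = 6), and the ETS factor gene Gabpa was at 66.1 ± 3.99 CPM in injured-sire (SD, n = 5) and 65.3 ± 6.45 CPM in uninjured-sire libraries (SD, n = 6). The median log2 fold change was 0.00 over 20 nuclear respiratory chain genes and over 14 genes of mitochondrial mass, with 0 called in each.

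Of the 13 proteins that this ribosome makes, the genes of 9 could be tested, all 9 with a negative log2 fold change and 0 called. Of all genes tested, 49.9% had a negative log2 fold change. The 9 genes share libraries and scaling, so their signs are not independent. At an unadjusted p below 0.05 in edgeR there were 3 (mt-Nd2, mt-Nd4 and mt-Co2), or 33.3% against 8.96% of all genes. Of these, mt-Co2 lay near 0 CPM in most libraries. mt-Nd2 and mt-Nd4, subunits of complex I, had log2 fold changes of -0.14 ± 0.0667 and -0.12 ± 0.0557 (SE, edgeR adjusted p = 0.541 and 0.539). mt-Co1 of complex IV was at 55270 ± 2087 CPM in injured-sire (SD, n = 5) and 57450 ± 4665 CPM in uninjured-sire libraries (SD, n = 6). mt-Co2 had a median of 0.0485 CPM and at most 0.394 CPM in injured-sire libraries. In uninjured-sire libraries its median was 0.313 CPM, with 21.8 CPM in replicate 20, 5.985 CPM in replicate 22 and at most 0.316 CPM in the rest. mt-Nd4l and mt-Atp8 had no counts, and mt-Nd3 and mt-Atp6 reached at most 0.555 and 0.522 CPM in any library. mt-Co3 ran from 0 to 116 CPM in injured-sire and from 0 to 156.5 CPM in uninjured-sire libraries, with a 95% interval of its log2 fold change from -5.38 to 4.04. The values of mt-Co2, mt-Co3, mt-Nd4l, mt-Nd3, mt-Atp6 and mt-Atp8 are uncertain, and multi-mapping reads were not counted. These genes were picked after their values had been seen.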

How the data were processed

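The deposited values are raw counts of reads per Ensembl gene, not normalized, for 12 heart ventricle libraries. Per the file header the authors counted with featureCounts 2.1.1, strand setting 2, without options for paired or multi-mapping reads, on Ensembl release 114 (GRCm39). The submitters' processing notes name STAR 2.7.10a and Subread 2.0.3. The table has 11 further sample columns, which match none of these samples and were left out. Symbols came from GENCODE M21 (51487 of 78317 IDs matched), used for names and transcript lengths only. CPM values, and SDs over libraries, were computed from the counts and TMM library sizes.

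In R 4.3.3, edgeR 4.0.16 was run on the whole table (filterByExpr with a minimum count of 10 and minimum total of 15, TMM, robust quasi-likelihood F test, two-sided, Benjamini-Hochberg over 17130 genes, threshold 0.05). SEs come from the F statistic. Alternatives used DESeq2 1.42.0 and sva 3.50.0, and their effects on the members are given in the closing section. The share of counts in both rRNAs together and the ratio of mt-Rnr1 to mt-Rnr2 were compared by exact permutation tests. The fit was tested on simulated counts for 16664 genes. It called 9 of 50 genes changed 1.25-fold, 28 of 49 changed 1.5-fold, 38 of 46 changed 2-fold and 41 of 46 changed 3-fold. Of 16473 unchanged genes it called 5. Most changes of 1.25-fold were thus missed, so small changes of members could go uncalled. The changed genes were drawn from all genes tested, so these shares are not those of the members. The members' intervals were narrower (median half-width 0.155 against 0.262 over all genes). No libraries of a group were duplicates: over 30 pairs, chi-square divided by its degrees of freedom was 13.3 to 40.3. Depth leaves at least 200 counts per member and library.

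The member genes, lists and alternatives were chosen with earlier results of these data known. The members named were the 5 with the smallest p in each direction, the 3 highest and lowest per kb in each subunit, any with groups that did not overlap, Mrpl12, Mrps12 and Mrps36, and from each pathway list the 2 genes with the smallest p. Named pseudogenes of the family (5 in the table) had at most 18 counts.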

Additional observations from a re-analysis of the deposited data

Results flagged for a closer look

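In 86 checks of a group for a library far from its others, over the named genes and library measures, 2 stood out, and chance alone gives about 1 in 20. Both concern injured-sire replicate 13. Mrpl15 was at 66.8 CPM there, against 55.6 to 58.7 CPM in the other 4 injured-sire libraries. Mrpl39 was at 63.7 CPM there, against 55.3 to 57.4 CPM in the others.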

How the results depend on the processing

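No member was called in either direction under any of the 21 alternatives run. The number of members at an unadjusted p below 0.05, which was 3, became 1 with all 12 libraries (1.28% against 8.17% of all genes). It was 2 to 6 when a library was left out, with 6 (7.69% against 8.78%) without uninjured-sire replicate 22. Over these fits with a library left out, the share of all genes was 7.52% to 9.75%. The number became 5 without a filter on low counts (6.41% against 15.5% of all genes) and 8 with 1 surrogate variable (10.3%, as over all genes). With scores for airway and fat markers in the model it was 7 (8.97% against 9.58%). With DESeq2 size factors it was 3 (3.85% against 8.95%), and with the DESeq2 Wald test 3 (against 9.56%). It was 3 with library totals and TMM without mitochondrial genes (against 8.94%) and with a filter of 1 CPM in 5 libraries (against 9.78%). It was 2 without a scaling factor (2.56% against 8.86%) and with a covariate from Xist and Y-linked genes (against 8.0%). The members' median log2 fold change stayed negative, from -0.09 to -0.02, except with all 12 libraries (0.01). The log2 fold change of mt-Rnr1 was -0.32 with all 12 libraries (adjusted p = 0.438), -0.44 with a surrogate variable (adjusted p = 0.0769) and -0.47 to -0.39 with a library left out. That of mt-Rnr2 passed at -0.26 in the DESeq2 Wald test and at -0.28 without a filter, and was -0.30 to -0.23 with a library left out. Of the fits with a library left out, mt-Rnr2 passed only without uninjured-sire replicate 21 (edgeR adjusted p = 0.0494). The difference in rRNA share was -0.173 percentage points with all 12 libraries (exact permutation p = 0.0996), against -0.251 without replicate 16. The causes were not tested. Of the named genes that are not rRNA, Rpusd4 passed in the DESeq2 Wald test and Mtg2 without a filter. Over the whole table the Wald test called 71 genes higher and 59 lower, and the fit without a filter 97 and 139. The main fit called 9 and 9. A change of sign was counted only where a value was called. No paired analysis was possible because no replicate number occurs in both groups. Counting error weighs most on members near the lowest depth, 200 counts in a library.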
